A study of Mus musculus with 72 samples.

Results

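The 9 transcription factors Tbx3, Tbx5, Tbx18, Tbx20, Nkx2-5, Gata4, Hand2, Shox2 and Irx4 were followed in the atria and ventricles of mice with 2, 1 or no intact copies of Gnb5. They were chosen by name as factors that build the cardiac chambers and the conduction system, with earlier results of these data known. All 9 were found among the 53715 gene rows of the count files when Ensembl identifiers were matched to mouse symbols. Both chambers came from the same 18 male mice of 18 weeks, 6 Gnb5+/+ (WT), 6 Gnb5+/- (HET) and 6 Gnb5-/- (KO), which gave 6 heart groups of 6 RNA-seq libraries. The knockout allele is a germline deletion of exon 3 made in the C57BL/6J strain, so it is carried by every cell of the HET and KO mice and is not restricted to the heart. Left and right atria were pooled, as were left and right ventricles. The nodes were not dissected out, so their cells contribute to the atrial libraries, and fewer cells of a type cannot be told apart from less RNA per cell.

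These factors act together in the embryo and are kept, at lower levels or in fewer cells, in the adult heart. Nkx2-5, Gata4, Hand2, Tbx5 and Tbx20 bind regulatory regions of muscle genes, often side by side, and drive the working muscle programme. Tbx3, Tbx18 and Shox2 are known for the formation and identity of the sinoatrial node, where Tbx3 holds back working muscle genes and Shox2 holds back Nkx2-5. Irx4 is a homeobox gene of ventricular muscle.

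The libraries matched their labels. The heart libraries held 29355469 to 46118252 reads on genes. Gnb5, which encodes the beta-5 subunit of G proteins, had 24.6 ± 2.21 CPM (reads scaled to library size after TMM normalization; mean ± SD, n = 6 here and below) in WT atria, 12.8 ± 1.64 in HET atria and 1.52 ± 0.342 in KO atria, and 22.2 ± 1.76, 11.5 ± 1.60 and 1.13 ± 0.401 in the ventricles. All 8 markers of working atrial muscle were called higher in atria and all 6 of working ventricular muscle higher in ventricles in each genotype. WT atria of mice 16 and 18 held the most RNA of ventricular muscle (summed ventricular markers of 3435 CPM at the top, against a WT atrial median of 1816), and the HET ventricles of mouse 4 stood apart for several factors, so results that rest on these libraries were also computed without them.

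For orientation, the 250 bases before the RefSeq transcription start (GRCm38.p6) are shown for the one factor called between genotypes, Tbx18, and for the factors with the widest spread between atrial libraries, Shox2 and Irx4. A window was at hand for 6 of the 9 factors. Capitals mark any match, on either strand, to 4 motifs, none of which overlapped another. The T-box motif was searched as GGTGTGA. The GATA motif was searched as AGATAA. The NK2 homeobox motif was searched as TNAAGTG. The E-box was searched as CATCTG.
Tbx18 (chr9:87731261-87731510, minus strand): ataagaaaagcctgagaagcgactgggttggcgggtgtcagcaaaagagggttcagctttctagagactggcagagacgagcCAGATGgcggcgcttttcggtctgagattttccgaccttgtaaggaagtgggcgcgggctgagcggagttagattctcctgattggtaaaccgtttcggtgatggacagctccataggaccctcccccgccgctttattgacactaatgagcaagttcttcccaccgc
Shox2 (chr3:66981772-66982021, minus strand): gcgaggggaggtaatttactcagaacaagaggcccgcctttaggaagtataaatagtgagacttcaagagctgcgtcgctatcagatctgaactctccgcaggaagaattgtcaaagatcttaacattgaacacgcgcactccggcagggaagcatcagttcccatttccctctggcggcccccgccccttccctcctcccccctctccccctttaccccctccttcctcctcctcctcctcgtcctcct
Irx4 (chr13:73260247-73260496, plus strand): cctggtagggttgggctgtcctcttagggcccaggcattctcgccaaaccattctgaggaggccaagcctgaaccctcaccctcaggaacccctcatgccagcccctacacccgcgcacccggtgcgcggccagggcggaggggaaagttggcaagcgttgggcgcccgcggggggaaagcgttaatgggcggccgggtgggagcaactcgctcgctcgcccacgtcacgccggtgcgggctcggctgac
The Tbx18 window held 1 E-box, 168 bases before the start and read on the opposite strand, while the windows of Shox2 and Irx4 held none of these letter strings. Over the 32851 promoter windows of the same length, 14.4% held the E-box, 10.1% the NK2 motif, 9.99% the GATA motif and 3.33% the T-box motif. The G and C content was 54.0% for Tbx18, 55.6% for Shox2 and 68.8% for Irx4.

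Per kilobase of exon, the order of the factors differed between the chambers. In WT atria the order was Tbx5 (57.1 CPM per kb), Gata4 (33), Tbx20 (20.2), Nkx2-5 (19.96), Hand2 (11.3), Tbx18 (2.18), Tbx3 (1.35), Shox2 (1.11) and Irx4 (0.530). The ranges of 6 mice overlapped between Tbx20 and Nkx2-5, between Tbx3 and Shox2 and between Shox2 and Irx4, and were apart between the other neighbours. In WT ventricles Gata4 led (39.2 CPM per kb), followed by Hand2 (19.2), Nkx2-5 (18.7), Irx4 (14.7), Tbx20 (10.6), Tbx5 (6.20), Tbx3 (2.31), Tbx18 (1.01) and Shox2 (0.187). Here the ranges of Hand2, Nkx2-5 and Irx4 overlapped from neighbour to neighbour, and the others were apart. Tbx5 thus headed the list in atria and came after Tbx20 in ventricles, while Irx4 was last in atria and stood above Tbx20 in ventricles.

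**Figure D1:**
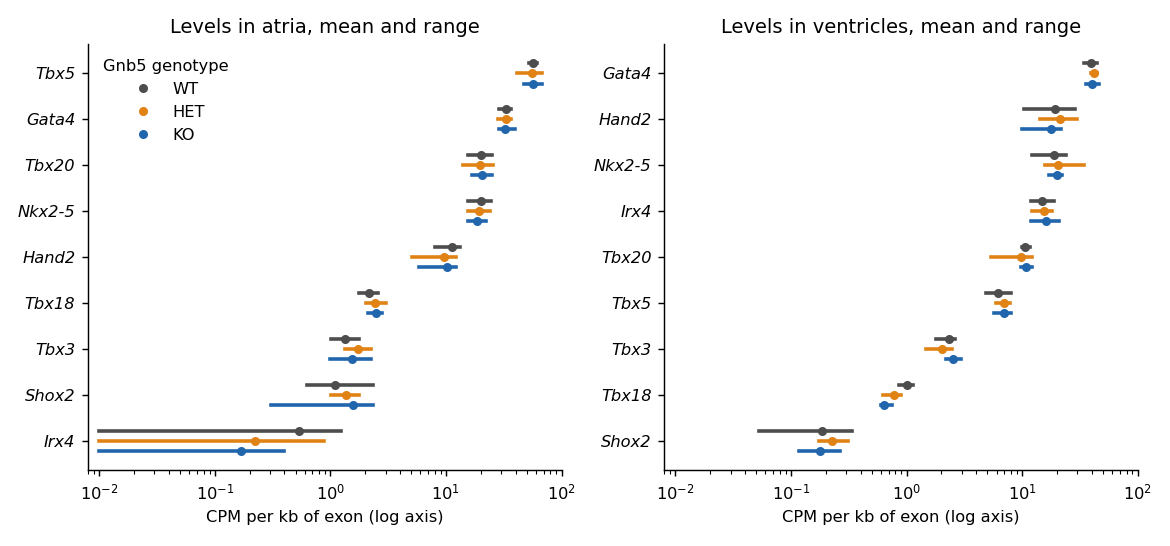
Levels of the 9 factors per kilobase of exon (TMM-normalized CPM per kb, log axis) in atria (left) and ventricles (right), ordered by the WT mean. Points are means of 6 mice and lines run from the lowest to the highest mouse, drawn from 0.01 where a mouse had no read; the order changes between chambers and changes little between genotypes.

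The first question was how the factors differ between the chambers of the same mouse. Of the 9 factors, 8 differed between WT atria and ventricles, 7 in HET and 8 in KO (edgeR's quasi-likelihood test in a fit without the mouse, adjusted p below 0.05), where 52.4%, 57.7% and 56.0% of the 16507 genes tested were called. An exact sign-flip test of the 6 within-mouse differences allows no p below 0.0312. It gave 0.0625 for Hand2 in WT and KO and for Gata4 in KO, and 0.0312 for the other called factors. In each genotype 4 factors were called higher in atria, where 25.9% (WT), 28.9% (HET) and 28.1% (KO) of genes were, and 4, 3 and 4 were called lower, where 26.5%, 28.8% and 27.9% of genes were. The groups did not overlap for 6, 7 and 5 factors, against 28.5%, 34.1% and 37.7% of all genes. TMM factors of atria lay between 1.04 and 1.36 and those of ventricles between 0.740 and 1.02, so the scaling bears on each chamber difference. When libraries were scaled by total counts alone, the median gene moved towards atria by 0.46 (WT), 0.65 (HET) and 0.57 (KO) on the log2 scale, and the share of called genes that were higher in atria went from 49.4% to 86.1% in WT, from 50.1% to 89.8% in HET and from 50.1% to 87.7% in KO. The chamber differences below are on the TMM scale.

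Tbx5, Tbx18, Tbx20 and Shox2 were higher in atria under all scalings tried. Tbx5 (chr5:119832668-119885219), which is mutated in a syndrome of heart and limb malformation, ran from 245 to 288 CPM in WT atria (median 268), from 192 to 319 in HET atria (median 257) and from 223 to 316 in KO atria (median 260). In ventricles it ran from 22.7 to 37.6 CPM in WT (median 27.2), from 27.6 to 36.6 in HET (median 33.1) and from 26.7 to 37.4 in KO (median 32.1). No ventricular library came near an atrial one. The difference in log2 was 3.20 (SE 0.124, adjusted p = 9.11e-22) in WT, 2.99 (SE 0.123) in HET and 3.02 (SE 0.123) in KO, and it was present in 18 of 18 mice, between 2.59 and 3.59 within a mouse.

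Tbx20 (chr9:24718138-24774303), a T-box factor that works with Gata4 and Nkx2-5 in cardiac muscle, was 187 to 303 CPM in WT atria (median 237) and 118 to 140 CPM in WT ventricles (median 126). HET and KO hearts held a like split, with medians of 238 and 241 CPM in atria and of 130 and 130 CPM in ventricles. The log2 difference was 0.93 (SE 0.139, adjusted p = 6.50e-07) in WT, 1.01 (SE 0.140) in HET and 0.92 (SE 0.139) in KO, with all 18 mice higher in atria.

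Shox2 (chr3:66971727-66981771) was the scarcest factor of the ventricles and one of the most variable of the atria. It ran from 2.06 to 7.78 CPM in WT atria (median 2.41), from 3.33 to 5.85 in HET atria (median 4.52) and from 1.02 to 7.78 in KO atria (median 5.28). Among the ventricles it ran from 0.176 to 1.12 CPM in WT (median 0.608), from 0.580 to 1.03 in HET (median 0.694) and from 0.387 to 0.885 in KO (median 0.560). Every atrial library but that of KO mouse 5 (1.02 CPM) stood above the highest ventricular library, yet the WT atria split into 4 mice at 2.06 to 2.46 CPM and mice 7 and 16 at 5.11 and 7.78 CPM. The log2 difference was 2.57 (SE 0.390, adjusted p = 8.06e-07) in WT, 2.60 (SE 0.384) in HET and 3.14 (SE 0.388) in KO, in 18 of 18 mice. Without the WT atria of mice 16 and 18 the WT value was 2.25.

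Irx4, Hand2, Tbx3 and Gata4 had the higher level in ventricles on the TMM scale, and under total counts alone Irx4 stayed higher there in all 3 genotypes, Hand2 kept its direction but its call in HET only, Tbx3 turned to 0.40 in HET and Gata4 turned in every genotype. Irx4 (chr13:73260479-73269608) held 31.0 to 49.0 CPM in WT ventricles (median 37.1), 31.6 to 47.7 in HET ventricles (median 40.4) and 30.9 to 54.8 in KO ventricles (median 40.8). In the atria the medians were 0.950 CPM in WT, 0.277 in HET and 0.297 in KO, with highest values of 3.21, 2.30 and 1.03 CPM. Of 18 atrial libraries, 5 held no Irx4 read, which allows a level of up to 0.0507 to 0.0682 CPM (3 reads, counting error only). The ratio of group means was 27.8 in WT, 70.4 in HET and 95.4 in KO, and the log2 difference of atria against ventricles was -4.86 (SE 0.622, adjusted p = 3.07e-08), -6.19 (SE 0.680) and -6.52 (SE 0.690). Without the WT atria of mice 16 and 18 the WT value was -6.44.

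Hand2 (chr8:57320983-57324633), a basic helix-loop-helix factor of the developing ventricles, was 24.2 to 68.0 CPM in WT ventricles (median 42.3) and 19.0 to 30.9 CPM in WT atria (median 27.4). The groups overlapped in WT and KO and were apart in HET, where ventricles held 33.4 to 69.5 CPM and atria 12 to 28.7 CPM. Its log2 difference was -0.77 (SE 0.230, adjusted p = 0.00502) in WT, -1.15 (SE 0.231, adjusted p = 6.41e-05) in HET and -0.80 (SE 0.230, adjusted p = 0.00335) in KO, with 16 of 18 mice higher in ventricles. Under total counts alone the WT and KO values were -0.29 and -0.23 and were not called.

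Tbx3 (chr5:119670669-119684724), a repressor found throughout the conduction system, was 11.9 to 17.3 CPM in WT ventricles (median 15.8) against 6.64 to 11.8 CPM in WT atria (median 8.97). In HET it ran from 9.66 to 16.4 CPM in ventricles (median 12.7) and from 8.78 to 14.9 CPM in atria (median 11.3), and in KO from 14.4 to 19.7 CPM (median 16.3) and from 6.61 to 14.9 CPM (median 9.56). The chambers lay apart in WT and overlapped in HET and KO. The log2 difference was -0.78 (SE 0.172, adjusted p = 0.000243) in WT, -0.22 (SE 0.171, adjusted p = 0.269) in HET and -0.71 (SE 0.170, adjusted p = 0.000556) in KO. Under total counts alone the WT and KO values were -0.33 and -0.15, neither of them called, and the HET value was 0.40.

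Gata4 (chr14:63198922-63271692), a zinc finger factor of cardiac muscle, moved least among the called factors. It was 134 to 173 CPM in WT ventricles (median 149) and 113 to 142 CPM in WT atria (median 132), a log2 difference of -0.25 (SE 0.086, adjusted p = 0.0145), followed by -0.33 (SE 0.086) in HET and -0.32 (SE 0.086) in KO. Under total counts alone these became 0.21, 0.29 and 0.24, each called higher in atria. In WT the call was also lost with no filter (adjusted p = 0.0616), with upper quartile factors (adjusted p = 0.0608), without the ventricles of WT replicate 2 (adjusted p = 0.0628) and without those of WT replicate 5 (adjusted p = 0.0578). Nkx2-5 (chr17:26838664-26845009), a homeobox factor required for chamber muscle and for the atrioventricular part of the conduction system, was not called in any genotype on the TMM scale, at 0.09 (SE 0.157, 95% interval -0.22 to 0.40) in WT, -0.10 (SE 0.157) in HET and -0.12 (SE 0.157) in KO, with 9 of 18 mice to each side. Without the HET ventricles of mouse 4 the HET value was 0.12, also not called. Total counts alone gave 0.55, 0.52 and 0.42, each called higher in atria.

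**Figure D2:**
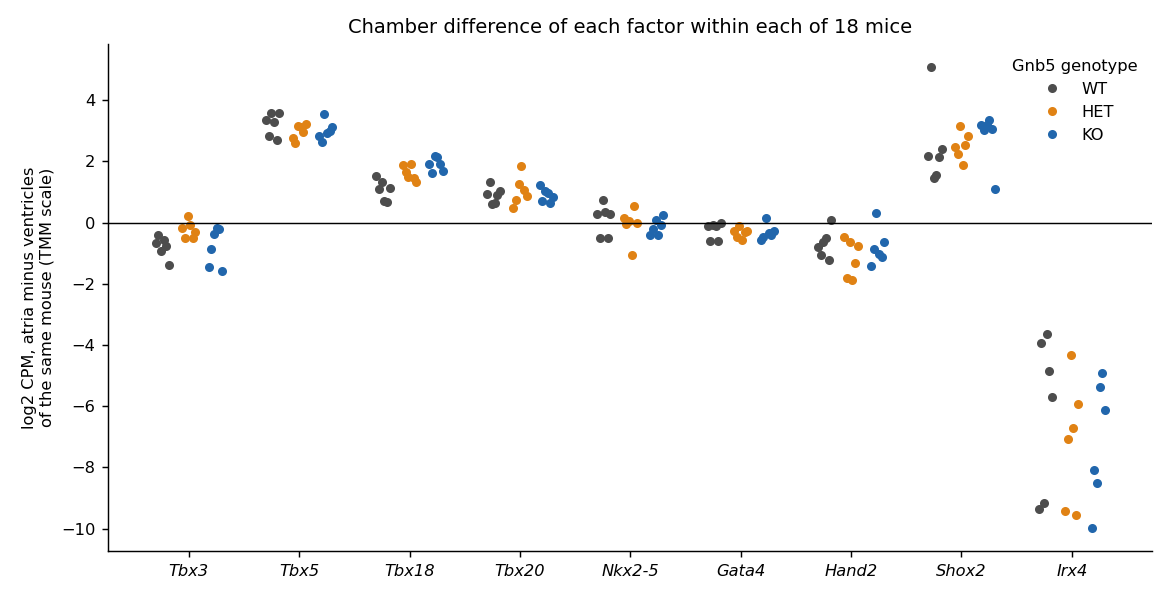
Difference in log2 CPM between atria and ventricles of the same mouse for the 9 factors (TMM scale), 1 point per mouse, coloured by Gnb5 genotype. Tbx5, Tbx18, Tbx20 and Shox2 lie above 0 in 18 of 18 mice and Irx4 lies below 0 in 18 of 18; total count scaling raises every difference, by which Gata4 (-0.25 to 0.21 in WT) changes side in all genotypes, Tbx3 in HET and Nkx2-5 in HET and KO.

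The second question was whether the loss of Gnb5 changed any of these factors. In atria none of the 9 was called, at 0.253% of 16181 genes called for KO against WT, 0.0124% for HET against WT and 0.0494% for KO against HET. None had an unadjusted p below 0.05 in edgeR there (8.15%, 7.22% and 4.86% of genes), none was without overlap (0.630%, 0.204% and 0.414% of genes), and DESeq2 called none either. In ventricles 1 of 9 was called for KO against WT, Tbx18, with 0.188% of 14866 genes called, and none for HET against WT (0.0202% of genes) or KO against HET (0.0874%), where Tbx18 in the former and Tbx3 and Tbx18 in the latter had an unadjusted p below 0.05 and DESeq2 called none. The study had already reported lower ventricular Tbx18 in KO mice from these same libraries. The factors were chosen with earlier results known, so 1 of 9 against 0.188% of genes is no independent support. An unadjusted p below 0.05 was reached by 4.78%, 4.84% and 8.79% of genes in the 3 ventricular comparisons. Tbx18 for KO against WT was the 1 factor without overlap, against 0.545% of genes there, 0.155% for HET against WT and 1.01% for KO against HET. Leaving aside Irx4 and Shox2 in both chambers, whose atrial levels vary most, and Tbx18 in ventricles, the other 39 differences between genotypes lay between -0.28 and 0.36 on the log2 scale. In ventricles Shox2 ran from -0.34 (KO against HET) to 0.28 (HET against WT), and Irx4 from 0.05 (KO against HET) to 0.12 (KO against WT).

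The intervals show what these libraries could have missed. For KO against WT in atria the 95% interval of the log2 difference was -0.21 to 0.19 for Tbx5, -0.20 to 0.14 for Gata4, -0.23 to 0.29 for Tbx20, -0.35 to 0.13 for Nkx2-5, -0.52 to 0.21 for Hand2 and -0.18 to 0.60 for Tbx3. It was wide for Shox2, at 0.51 (-0.22 to 1.25), and for Irx4, at -1.61 (-3.78 to 0.56). The Irx4 estimate rested on 2 libraries: without the WT atria of mice 16 and 18 it was -0.05. In ventricles the interval of KO against WT was -0.13 to 0.19 for Gata4, -0.23 to 0.30 for Tbx20, -0.08 to 0.40 for Tbx5, -0.14 to 0.38 for Irx4, -0.11 to 0.39 for Tbx3 and -0.24 to 0.43 for Nkx2-5. It was wider for Hand2, at -0.60 to 0.35, and for Shox2, at -0.72 to 0.59.

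**Figure D3:**
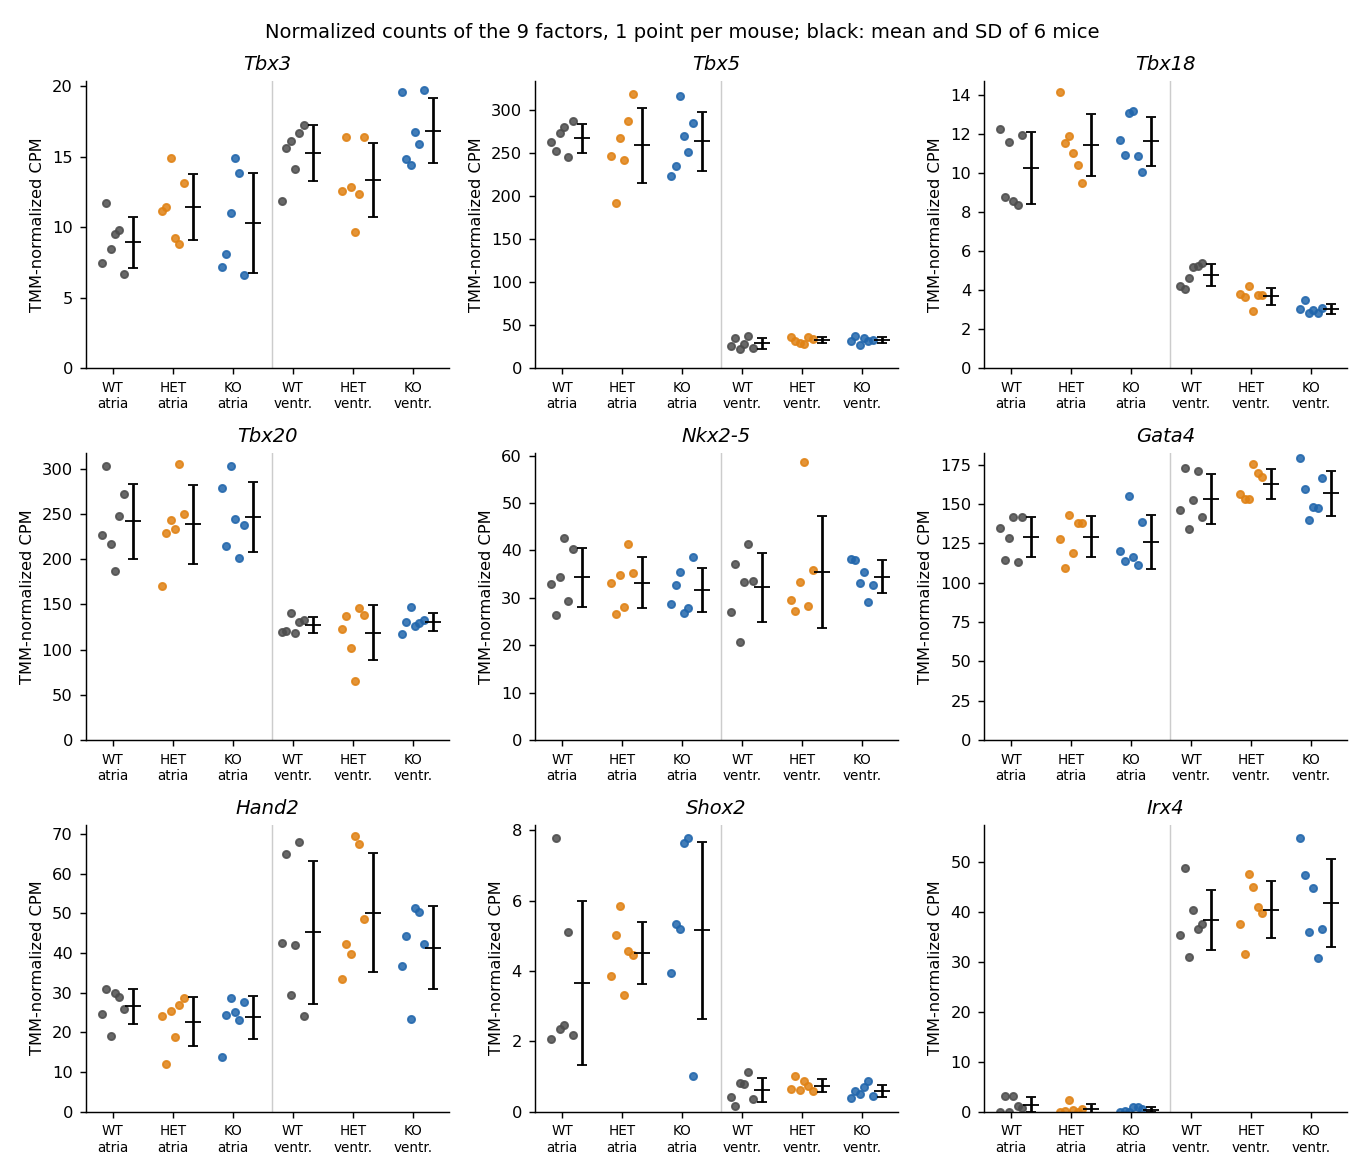
TMM-normalized CPM of the 9 factors in the 6 heart groups, 1 point per mouse, with the mean and SD of 6 mice in black beside the points. Genotypes overlap within each chamber in every panel except Tbx18 in ventricles, where WT (4.06 to 5.39) and KO (2.82 to 3.51) are apart; chambers are apart for Tbx5, Tbx18, Tbx20, Shox2 and Irx4 in every genotype. Scaling by total counts would change the order of the chambers for Gata4 in every genotype, for Tbx3 in HET and for Nkx2-5 in HET and KO.

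Tbx18 (chr9:87702800-87731260, minus strand) was the factor that differed between genotypes, and it lies on the chromosome of Gnb5, 12.4 Mb from it. It is expressed in the epicardium, in mural cells and in the head of the sinoatrial node, and forced expression is known to give ventricular myocytes features of pacemaker cells. In ventricles it ran from 4.06 to 5.39 CPM in WT (median 4.91), from 2.92 to 4.23 in HET (median 3.77) and from 2.82 to 3.51 in KO (median 3.00). The lowest WT mouse stood above the highest KO mouse, and HET lay between them and overlapped both. These values rest on 102 to 190 reads per library in WT, 71 to 105 in HET and 70 to 109 in KO.

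For KO against WT in ventricles the log2 difference of Tbx18 was -0.66 (SE 0.117, adjusted p = 0.0136), and the exact permutation test over mice gave p = 0.00216, the smallest p that 6 mice against 6 allow. HET against WT gave -0.37 (SE 0.117), with 6 of 6 HET mice below the WT mean (adjusted p = 0.961, exact permutation p = 0.00649), and KO against HET gave -0.28 (SE 0.119, adjusted p = 0.497, exact permutation p = 0.0152). These 3 comparisons share groups, and only the first was called. Its direction was the same under all alternatives, with log2 differences from -0.70 to -0.60, but the call was lost under some: the adjusted p was 0.0507 with no filter, 0.119 with total counts alone, 0.0509 without WT replicate 5 (mouse 7) and 0.0975 without the ventricles of mice 8 and 14, whose TMM factors stood apart from the other ventricles. DESeq2 gave an adjusted p of 0.000150.

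In atria Tbx18 ran from 8.40 to 12.3 CPM in WT (median 10.2), from 9.51 to 14.2 in HET (median 11.3) and from 10.1 to 13.2 in KO (median 11.3). The genotypes overlapped and the estimate had the other sign, 0.18 for KO against WT (SE 0.116, 95% interval -0.04 to 0.41, adjusted p = 0.764). Within a mouse, atria exceeded ventricles by 1.08 ± 0.333 log2 units in WT, by 1.61 ± 0.238 in HET and by 1.92 ± 0.226 in KO. The highest WT mouse (1.53) was below the lowest KO mouse (1.63). The KO effect in atria minus that in ventricles was 0.85 (SE 0.163; exact permutation p = 0.00216 over the within-mouse differences). In edgeR's test of this interaction with each mouse as a block the adjusted p was 0.112, and no gene of 16507 was called (0%), with 640 (3.88%) at an unadjusted p below 0.05. Tbx18 was called with DESeq2 (adjusted p = 0.00705, 18 genes called), with no filter (0.00258) and without the block (0.0494), and was not called with RLE factors (0.123).

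**Figure D4:**
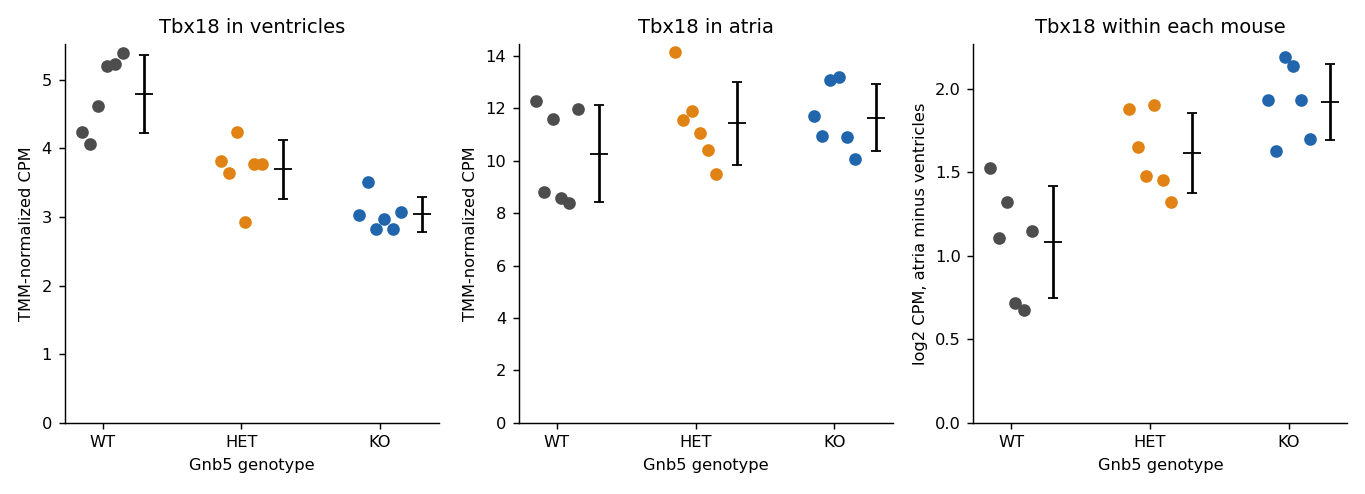
Tbx18 in ventricles (left) and atria (middle), in TMM-normalized CPM, and the difference in log2 CPM between atria and ventricles of the same mouse (right), 1 point per mouse with the mean and SD of 6 mice. In ventricles WT lies above KO without overlap (-0.66 in log2; -0.62 and not called under total counts), in atria the genotypes overlap, and the within-mouse difference runs from 0.68 to 1.53 in WT and from 1.63 to 2.19 in KO.

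Markers of the cells named above as expressing Tbx18, and of fibroblasts, had the following levels beside this result. The summed sinoatrial markers ran from 80.7 to 129 CPM in WT ventricles and from 103 to 126 CPM in KO ventricles. The summed epicardial and mesothelial markers (8 of 8 measured) ran from 26.8 to 48.9 CPM in WT ventricles and from 29.4 to 49.1 CPM in KO ventricles. Mural cell markers (8 of 8) ran from 1382 to 1598 CPM in WT and from 1421 to 1711 CPM in KO, and fibroblast markers (7 of 7) from 981 to 1229 CPM and from 888 to 1030 CPM, a log2 difference of -0.15 (exact permutation p = 0.0519, 0.582 when adjusted over 56 list comparisons). None of the 8 epicardial markers was called, and their median log2 difference was 0.13 (all genes -0.01). The estimate for Wt1, a defining gene of the epicardium, was -0.11 (SE 0.153). Aldh1a2, a retinoic acid synthesis enzyme that is also encoded on chromosome 9, was 4.88 ± 0.535 CPM in KO ventricles against 7.66 ± 1.99 in WT (adjusted p = 0.396). It was the 1 marker of the 8 without overlap, where 0.545% of all genes were. Wt1 and Aldh1a2 were picked after their values were seen, and both went against the list median of 0.13. The part of these cells in the result was not tested. A transcript on the other strand, D030062O11Rik, shares 970 exon bases with Tbx18 and held at most 3 reads in any heart library.

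Tbx3 gave the other differences with an exact p below 0.05. In ventricles KO mice were above HET mice by 0.33 in log2 (SE 0.127, exact permutation p = 0.0303, adjusted p = 0.468), with overlap and with the WT mean between them, and by 0.25 without the HET ventricles of mouse 4. These and the Tbx18 values are the 4 exact p below 0.05 among 54 comparisons of a factor between genotypes. The share of all genes with an exact p below 0.05 was not computed, so this count has no background to be read against. The HET effect in atria minus that in ventricles was 0.56 for Tbx3 (SE 0.226, exact permutation p = 0.00866) and 0.54 for Tbx18 (SE 0.163, exact permutation p = 0.0130), and the adjusted p was 0.908 for both. No gene was called in that HET interaction by edgeR (0%, with 865 or 5.24% at an unadjusted p below 0.05) and DESeq2 called 1, which was none of the 9.

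Atrial Shox2 and Tbx3 varied from mouse to mouse with some markers of the sinoatrial node. After subtraction of each genotype's mean, the gene with the highest correlation to Shox2 among 13305 genes in 18 atrial libraries was Hcn4, the main pacemaker channel (Pearson's r = 0.935, Spearman's rho = 0.889, and r = 0.892 without the 2 libraries farthest from the median). Nfasc (r = 0.916) and Cntn2 (r = 0.913), cell adhesion genes of which Cntn2 marks conduction cells, came next. Tbx3 had r = 0.807 with Hcn4 and 0.761 with Shox2. Another sinoatrial marker, Cpne5, had r = -0.0855 with Shox2 and 0.141 with Tbx3. Genes of ventricular muscle went with these factors to differing degrees. Hey2 had r = 0.712 with Shox2 and 0.683 with Tbx3. For Shox2 the others were lower, at 0.331 with Myl2, 0.330 with Irx4, 0.288 with Myl3 and 0.443 with Myh7. Tbx3 had r = 0.566 with Irx4, 0.520 with Myl2, 0.422 with Myl3 and 0.368 with Myh7. These points share library, depth and dissection, and how much nodal tissue entered each sample was not measured.

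Hcn4 itself ran from 3.38 to 16.5 CPM in WT atria (median 4.94), from 11 to 27.7 in HET (median 21) and from 1.47 to 29.9 in KO (median 17.8). The WT mice with high Shox2, 7 and 16, held the high Hcn4 of their group (16.5 and 16.1 CPM), and KO mouse 5, lowest in Shox2, held 1.47 CPM. Hcn4 was not called between genotypes in atria, at 1.03 for KO against WT (SE 0.535, adjusted p = 0.665) and 1.30 for HET against WT (SE 0.537, adjusted p = 0.651). The summed sinoatrial markers (10 of 10) ran from 203 to 285 CPM in WT atria, from 265 to 326 in HET and from 209 to 330 in KO, with a log2 difference of 0.24 for HET against WT (exact permutation p = 0.00866). The summed markers of ventricular conduction differed from WT by 0.42 in HET atria (exact permutation p = 0.00649), by 0.33 in KO atria (exact permutation p = 0.0216) and by 0.36 in KO ventricles (exact permutation p = 0.0130). Adjusted over all 56 such list comparisons these exact p became 0.242, 0.242, 0.303 and 0.242, none below the threshold, and no single marker of either list was called between genotypes. Their part in the values of Shox2 and Tbx3 was not tested. In WT atria most of the ventricular conduction sum came from Gja5 and Etv1, both called higher in WT atria than in WT ventricles. The atrial sum therefore mainly follows these genes and is not a measure of conduction tissue alone. The sinoatrial list includes Rgs6, whose product binds that of Gnb5 and whose RNA the study reported as tending higher in KO atria and ventricles. The sinoatrial sum is therefore not a measure of nodal tissue alone either.

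Atrial Irx4 went with genes of ventricular muscle, most closely with Myl2 among those listed here. Its r was 0.825 with Myl3, 0.595 with Hey2 and 0.583 with Myh7. Its r with Myl2, the ventricular myosin light chain, was 0.975 over the 18 atrial libraries (rho = 0.973, and r = 0.983 without the 2 farthest libraries). Myl2 ran from 1.34 to 748 CPM in WT atria, from 1.56 to 346 in HET and from 5.19 to 206 in KO, against 6729 to 8190 CPM in WT ventricles. The 5 atrial libraries without an Irx4 read held 1.34 to 8.83 CPM of Myl2, and WT mice 16 and 18, with 3.19 and 3.21 CPM of Irx4, held 748 and 473 CPM. In those 5 libraries the log2 CPM of Irx4 is set by the prior count.

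**Figure D5:**
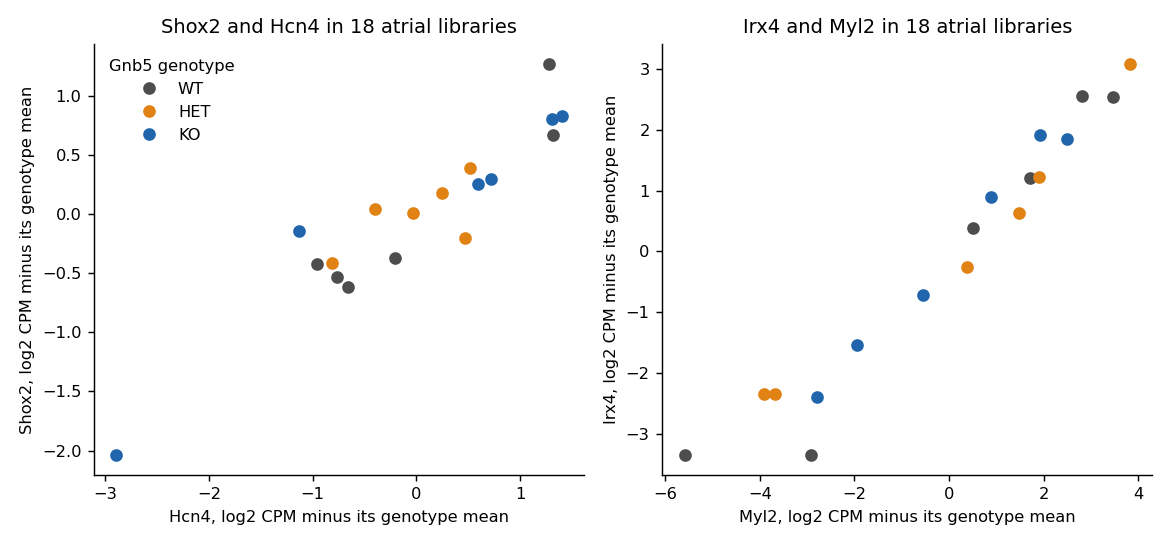
Shox2 against Hcn4 (left) and Irx4 against Myl2 (right) in 18 atrial libraries, each as log2 CPM minus the mean of its genotype, 1 point per mouse. Both pairs rise together (r = 0.935 and r = 0.975), with KO mouse 5 at the lower left of the first panel.

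Some pairs of working muscle factors went together in atria and others did not. After subtraction of the genotype mean, Gata4 correlated with Nkx2-5 (r = 0.835) and with Tbx5 (r = 0.809), and Tbx5 with Hand2 (r = 0.746, and 0.557 without the 2 farthest libraries). Hand2 had r = 0.450 with Nkx2-5 and 0.468 with Gata4, and Tbx20 had r between 0.00258 (Nkx2-5) and 0.254 (Tbx5) with these 4. In ventricles Nkx2-5 and Tbx20 went opposite ways (r = -0.702), which was -0.345 without the 2 farthest libraries. The genes most like each of the other factors were Nfic for Tbx5 (r = 0.919), Ccdc120 for Tbx18 (r = 0.851) and D5Ertd579e for Tbx20 (r = 0.895) in atria, and Mdm2 for Tbx3 (r = 0.892), Macrod1 for Nkx2-5 (r = 0.973), Cdk16 for Gata4 (r = 0.904), Creg1 for Hand2 (r = 0.902) and Sphk2 for Irx4 (r = 0.881) in ventricles.

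Other cardiac transcription factors and reported targets were put through the same comparisons. Of 34 other factors, 29 were tested in atria and 30 in ventricles, and none was called between any of the genotypes by edgeR. Between chambers of WT mice 9 of 31 tested were called higher in atria and 10 lower, near the 25.9% and 26.5% of all genes (median log2 difference -0.06, all genes 0.00). In HET 10 and 12 were called (28.9% and 28.8% of all genes), and in KO 10 and 13 (28.1% and 27.9%). Those of smallest adjusted p in WT were Irx2, a relative of Irx4 (-6.16, SE 0.346, 0.0695 against 5.33 CPM), Nr2f2, a determinant of atrial identity (2.20, SE 0.132, 41.9 against 9.13 CPM), Gata5 (4.19, SE 0.261, 5.54 against 0.299 CPM) and Etv1 (1.91, SE 0.125, 42.6 against 11.3 CPM).

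All 20 target genes were tested in atria and 19 in ventricles, and none was called between genotypes by edgeR. Of these targets, the study had reported with DESeq2 higher Scn10a in KO atria and ventricles and higher Tnnt2 in KO ventricles. The genes of the lists were examined here with edgeR alone. In HET 5 were called higher in atria and 11 in ventricles (28.9% and 28.8% of all genes), and in KO 6 and 12 (28.1% and 27.9%). In WT 5 and 12 were called, where 25.9% and 26.5% of all genes were (median log2 difference -0.41). The connexin gene Gja5 (4.17, SE 0.150, 128 against 7.08 CPM), the natriuretic peptide gene Nppa (6.75, SE 0.276), the calcium pump regulator Pln (-1.89, SE 0.127) and the growth factor Bmp10 (10.47, SE 0.807) had the smallest adjusted p. Levels of these lists were higher or lower on the TMM scale, and the shift under total counts given above applies to them too.

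The remaining marker lists, for WT atria against ventricles, gave the following counts, where 25.9% of all genes were called higher and 26.5% lower. They were 8 of 8 epicardial and 7 of 7 fibroblast markers higher in atria, 7 of 8 mural markers lower, 7 higher and 1 lower of 10 sinoatrial markers, and 2 higher and 2 lower of 5 tested markers of ventricular conduction. Of 6 endothelial markers 3 were higher and 3 lower, of 5 adipocyte markers 3 and 1, of 5 tested skeletal muscle markers 2 and 2, of 4 blood markers 3 and 0, and of 5 tested markers of cardiac neurons and glia 3 and 0. Between genotypes 1 marker of these lists was called, the endocardial receptor Npr3, at 308 ± 26.6 CPM in KO atria and 236 ± 28.4 CPM in WT atria (0.39, SE 0.0808, adjusted p = 0.0436).

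Neighbouring transcripts bear on how the counts of some factors are read. Hand2os1 on the opposite strand shares 461 exon bases with Hand2 and held 1082 to 2823 reads per heart library. Rsrc1 shares 153 exon bases with Shox2 and held 203 to 900 reads, and Tbx3os1 shares 115 with Tbx3 and held 11 to 84 reads. Libraries were stranded, but the strand setting of the counting is not given in the sources used here. If strand was ignored, reads in these shared bases could have been set aside as ambiguous and counted for neither gene. None of these 3 neighbours was called between genotypes, and Hand2os1 was -0.25 for KO against WT in ventricles (SE 0.103, adjusted p = 0.888). Between WT chambers Hand2os1 was lower in atria (-0.36, SE 0.114), Tbx3os1 was lower (-1.59, SE 0.266) and Rsrc1 was higher (0.46, SE 0.0978), which are also the directions of Hand2, Tbx3 and Shox2 on the TMM scale.

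In the brains of the WT and KO mice, a comparison added after the data were seen, Tbx3 and Tbx18 were measurable in all 3 regions and the other 7 factors did not pass the count filter in any. Tbx3 was 2.77 ± 0.361 CPM in WT cerebellum, 3.32 ± 0.222 in WT hippocampus and 3.78 ± 0.328 in WT cerebral cortex (n = 6 each). Tbx18 was 3.33 ± 0.355, 2.83 ± 1.00 and 4.24 ± 0.612 CPM in the same regions. Neither was called between KO and WT by edgeR in any region, where 0.0817%, 0.165% and 0.0557% of genes were called. For Tbx18 the log2 difference was -0.30 in cerebellum (SE 0.143, adjusted p = 0.583, exact permutation p = 0.0498), -0.14 in hippocampus (SE 0.220) and -0.06 in cortex (SE 0.119).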

How the data were processed

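RNA was sequenced from 36 heart libraries of 18 mice and 36 brain libraries, of which the latter were used for brain levels of the factors alone. The authors prepared stranded total RNA libraries, trimmed reads with cutadapt 1.8, removed ribosomal and low-complexity reads, aligned single-end reads to GRCm38 with STAR 2.5.3a and counted reads per Ensembl gene with HTSeq 0.9.1. The deposited counts are whole numbers without normalization. Rows that name no gene held 37.8% to 51.5% of all entries per heart library and were left out. Symbols, coordinates and merged exon lengths came from GENCODE M21, and promoter windows from RefSeq. Of all identifiers, 95 had no symbol.

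Counts were normalized by TMM over the libraries of each fit and tested with edgeR 4.0.16 (R 4.3.3; glmQLFit and glmQLFTest, filterByExpr with a count minimum of 10, Benjamini-Hochberg over all genes tested, called below 0.05). The 3 genotypes of a chamber were fitted together under genotype alone, as the study did. Chambers were compared in 1 fit of 36 libraries, and the difference of genotype effects between chambers with each mouse as a block. Both chambers of a mouse deviated together (r of 0.107 to 0.411, over 0.1 in 18 of 18), the mouse numbers coming from the labels. The mouse as a block changed no call of the 9 factors between chambers. Printed CPM use 1 set of TMM factors over the 36 heart libraries. Exact permutation tests, two-sided, ran over all 924 divisions of 12 mice on log2 CPM (prior count 2). Sign-flip tests between chambers ran over the 64 sign assignments of 6 within-mouse differences. Standard errors are the fold change over the square root of F, and 95% intervals use them. Tests were first run on simulated counts.

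The 9 factors and the gene lists were chosen with earlier results of these data known. Genes named are the 9 factors, the closest genes by r, the up to 4 list genes of smallest adjusted p among those called, overlapping genes and Gnb5. Hcn4, Myl2, Aldh1a2, Wt1, Cpne5, Hey2, Myl3 and Myh7 were singled out after their values were seen. Scn10a, Tnnt2 and Rgs6 are named for what the study reported of them. Alternatives were DESeq2 1.42.0, RLE and upper quartile factors, total counts, 2 filters, blocks, smaller fits and each library left out. Fits without named libraries and the brain fits were added after the data were seen.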

Additional observations from a re-analysis of the deposited data

Results flagged for a closer look

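In 4 of 54 combinations of factor and heart group, the highest or lowest of 6 mice stood apart from the others (a gap over 0.625 of the range), where chance gives about 1 in 20. KO mouse 12 had the highest ventricular Tbx18 of its group, at 3.51 CPM with the next at 3.06, and it remained below every WT mouse. HET mouse 4 had the highest ventricular Nkx2-5, at 58.7 CPM with the next at 35.8. KO mouse 10 had the lowest atrial Hand2, at 13.7 CPM with the next at 23.1. HET mouse 2 had the highest atrial Irx4, at 2.30 CPM with the next at 0.596, and also the highest atrial Myl2 of its group.

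The effect of genotype differed between chambers by an exact permutation test for Tbx18 in KO (0.85 in log2) and HET (0.54) and for Tbx3 in HET (0.56), with exact permutation p of 0.00216, 0.0130 and 0.00866. None of them passed edgeR's adjustment over all genes (adjusted p = 0.112, 0.908 and 0.908). All 9 factors were tested in both interactions, and the share of all genes with such an exact p was not computed.

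Outside the heart libraries, the hippocampus of WT mouse 8 held 109 reads and its cerebellum 36 reads summed over Tbx5, Tbx20, Nkx2-5, Gata4, Hand2, Shox2 and Irx4, against 0 to 10 in the other 34 brain libraries. The cardiac myosin gene Myh6, looked up after these values were seen, had 5254 and 1716 reads in the same 2 libraries and at most 43 in the others. The cause was not tested. The ventricles of mouse 8 are among the libraries left out in 1 alternative for Tbx18.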

How the results depend on the processing

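Each count of called factors was recomputed under every alternative, and sign changes of values called under neither setting were not counted. The 1 factor called for KO against WT in ventricles became 0 with no filter, with total counts alone, with a replicate block and without the ventricles of mice 8 and 14, and 0 to 1 when single libraries were left out. The replicate numbers join different animals, whose deviations correlated over 0.1 in at most 1 of 6 numbers per comparison, so the block (adjusted p = 0.0893 for Tbx18) joins libraries by number only. The KO interaction went from 0 to 1 factor with DESeq2, to 2 with no filter and to 1 with no replicate block (here the block of each mouse), and the HET interaction to 1 with no filter, where Irx4 was called. Over all genes those settings called 18, 97, 2 and 89. Between genotypes DESeq2 called, over all genes, 110 against 41 (KO and WT), 7 against 2 (HET and WT) and 24 against 8 (KO and HET) in atria, and 63 against 28 and 69 against 13 (KO and WT, KO and HET) in ventricles, where both tools called 3 for HET and WT. Fits of only 2 genotypes called 20 (KO and WT) and 13 (KO and HET) in atria, and total counts 63 in atria and 18 in ventricles for KO and WT. When total counts alone set the scale, Gata4 turned to 0.21 (WT), 0.29 (HET) and 0.24 (KO), Tbx3 in HET to 0.40 and Nkx2-5 to 0.52 (HET) and 0.42 (KO), since that scale moves all genes towards atria. The other counts between chambers stayed within 1.5 times, at 7 to 8 in WT, 7 in HET and 8 in KO with single libraries left out. A minimum of 10 counts in every library removes Shox2 and Irx4 from the chamber fits. Atrial Irx4 and ventricular Shox2 rest on few reads, and depth limits what could be seen there.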
